A study of Mus musculus with 18 samples.

Results

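The receptors, receptor SMADs and Id genes of the bone morphogenetic protein (BMP) pathway are described here in microglia and astrocytes of mice in which microglia were made to lose Tgfb1. The 10 genes were taken by name from the 35869 gene symbols in the files: the type I receptors Bmpr1a, Bmpr1b and Acvr1, the type II receptors Bmpr2 and Acvr2a, the SMADs Smad1 and Smad5, and the target genes Id1, Id2 and Id3. RNA was sequenced from flow-sorted brain cells of C57BL/6 mice, and all mice had received 5 doses of tamoxifen at 180 mg/kg by mouth. Controls carried Cx3cr1CreERT2, an inducible recombinase under the promoter of a receptor gene of microglia. KO animals were Cx3cr1CreERT2-Tgfb1fl/fl, so that tamoxifen deletes the floxed Tgfb1 segment in microglia and in any other macrophage with an active Cx3cr1 promoter. Control animals 1, 2, 4 and 5 gave the control microglia (n = 4), and controls 1 to 5 the control astrocytes (n = 5). KO animals 1 to 4 gave both the KO microglia (n = 4) and the KO astrocytes (n = 4). Astrocytes do not normally use the Cx3cr1 promoter, so their Tgfb1 alleles are floxed in KO animals but not targeted.

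BMPs are secreted dimers of the transforming growth factor beta (TGF-beta) superfamily that bring type I and type II receptor kinases together. The type II receptor phosphorylates the type I receptor, which phosphorylates SMAD1 and SMAD5, and these enter the nucleus with SMAD4. Id genes are among the best known direct targets, and their proteins lack a DNA-binding region and sequester basic helix-loop-helix factors. In the brain, BMPs are known for promoting astrocyte fate from neural precursors.

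Id2 and Id3 are textbook targets, and Acvr1 and Bmpr2 passed tests below. Bmpr1a holds the larger part of the summed RNA of Bmpr1a, Bmpr1b and Acvr1 in KO microglia. Short stretches before the start sites of these targets, of Acvr1, of Bmpr2 and of Bmpr1a are shown. RefSeq promoter windows (GRCm38.p6) matched 9 of the 10 genes, and Id1 was not among them. The 250 bases before each start were searched on both strands for GGCGCC, the GC-rich core of BMP response elements, and for GGAGCC, a variant of it. Capitals mark the match, each stretch is 30 bases, 5′ to 3′ on the strand of its gene, and GGCTCC is GGAGCC read on the other strand.
Id2: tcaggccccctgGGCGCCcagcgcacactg
Id2 variant: gtatgatggacgGGAGCCcttccaccaatg
Id3: cctcgcatccgaGGCTCCgctgtcctcggc
Bmpr1a: tgcgcgcgcgccGGCGCCtcttgctcgccc
Bmpr2: ctccggcggccgGGCGCCgctgcctgcccc
Acvr1 distal: agccgtctccccGGCTCCagcccggtgcct
Acvr1 proximal: cgcggagttccgGGCTCCacgccggctgca
The Id2 stretches lie on the minus strand at chr12:25096306-25096335, in an intron of a longer GENCODE transcript, and at chr12:25096163-25096192, in an untranslated exon. The Id3 stretch is at chr4:136143623-136143652 on the plus strand, and the Bmpr2 stretch at chr1:59764162-59764191 on the plus strand, both in exons that longer transcripts hold as untranslated sequence. The Bmpr1a stretch, at chr14:34502727-34502756 on the minus strand, is intronic in a longer transcript. Both Acvr1 stretches, at chr2:58567031-58567060 and chr2:58566891-58566920 on the minus strand, fall in an annotated untranslated exon. GGCGCC was present in 9.59% and GGAGCC in 26.0% of all 32851 promoter windows. Counted by gene, with a match in any of its windows, the shares were 10.85% and 28.58% of 27025 genes. Neither was found in the windows of Acvr2a and Smad1, and no window of the 9 genes held GTCTAGAC, a doubled SMAD box (0.167% of windows), or the E-box CACGTG (6.02%). Windows of Smad5 held both GGCGCC and GGAGCC, and windows of Bmpr1b held GGAGCC, which are not shown. The windows of the stretches shown were 62.8% to 85.6% G or C. The shares over all windows and over all genes are not matched for that content. These matches describe letters in a window, and binding was not measured.

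Levels are in TPM, a unit that is scaled by gene length and by library, so genes can be set against each other and read depth is unknown. Differences are of log2(TPM + 1), which understates changes of low genes, and were tested with limma with Benjamini-Hochberg adjustment over all genes tested. Replicates are separately numbered mice, so the spread is that between animals. The targeted gene was checked first. Tgfb1 was at 3.4, 2.9, 2.9 and 2.8 TPM in control microglia and at 1.8, 1.3, 1.7 and 2.0 TPM in KO microglia, without overlap. It fell by 0.57 on the log2 scale (limma, adjusted p = 0.0258), with adjusted p from 0.00422 to 0.177 over 18 alternative settings. Astrocytes held between 0 and 0.3 TPM of Tgfb1. The marker genes followed the labels: 8 microglial markers summed to between 35510 and 39190 TPM in control microglia and to between 303.6 and 372.2 TPM in control astrocytes. In KO microglia that sum was 8481 to 9219 TPM, and 7 of the 8 markers were lower. Control animals 1 and 2 and all KO animals had under 1 TPM of the Y-linked Ddx3y, while controls 3, 4 and 5 had 46.0 to 56.3 TPM. The X-linked Xist was at 28.6 to 48.3 TPM in the former and listed at 0 in the latter. All KO animals thus fall on the same side of this split, and genotype is partly confounded with it. The difference of each tested member against each kind of control alone is therefore given too. In sorted bulk RNA, fewer cells of a type and less RNA per cell cannot be told apart.

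**Figure D1:**
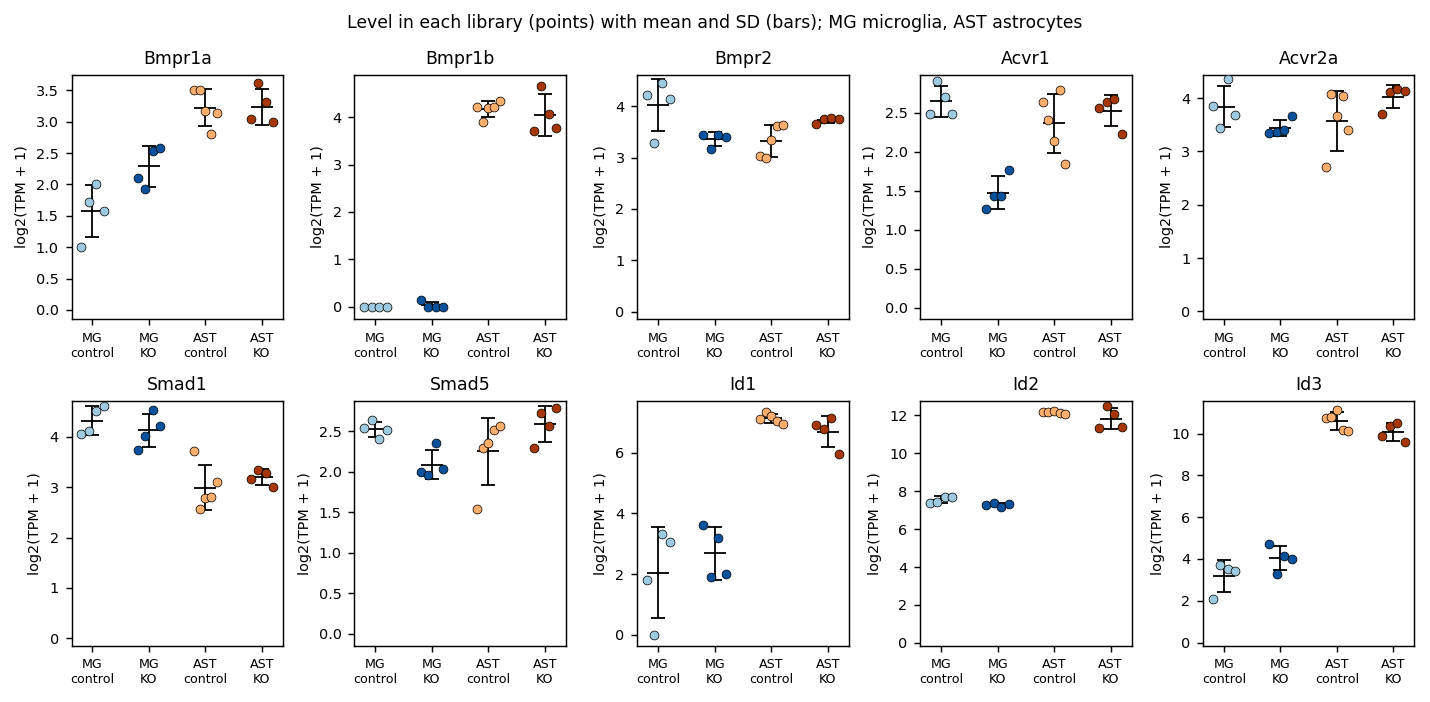
Level of each of the 10 genes as log2(TPM + 1) in microglia (MG) and astrocytes (AST), with a point for each library and the mean and SD of each of the 4 groups. Id1, Id2 and Id3 are far higher in astrocytes, Bmpr1b is at or near 0 in all microglia, and the Acvr1 points of KO microglia lie below all control microglia.

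Among the type I receptors, Acvr1 was lower in microglia of KO animals. It encodes ALK2, a kinase receptor for BMPs and activins. Control microglia had 4.6, 6.5, 5.5 and 4.6 TPM (5.30 ± 0.905, SD, n = 4) and KO microglia 1.4, 1.7, 1.7 and 2.4 TPM (1.80 ± 0.424, SD, n = 4). The highest KO library stood below the lowest control library. Acvr1 fell by 1.17 on the log2 scale (SE 0.18, 95% interval -1.58 to -0.76, limma, adjusted p = 0.00107). The log2 difference was -1.22 against the controls without Y-linked RNA and -1.12 against those with it, each past the threshold. Of the 9 members that could be tested in microglia, Acvr1 was the 1 that passed, while 28.4% of all 13054 genes tested passed, and 14.2% passed in the lower direction. In astrocytes Acvr1 was at 5.2, 4.3, 3.4, 5.9 and 2.6 TPM in controls and at 4.9, 5.2, 5.4 and 3.7 TPM in KO animals. The astrocyte groups overlapped, and their difference of 0.16 (SE 0.22, 95% interval -0.32 to 0.65) did not pass (limma, adjusted p = 0.771). Controls lacking Y-linked RNA gave 0.0068 and the others 0.27.

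The KO effect on Acvr1 differed between the cell types, by -1.33 on the log2 scale (SE 0.27, 95% interval -1.91 to -0.76, limma interaction contrast, adjusted p = 0.00273). Of the 10 members, 2 passed this test of the difference, Acvr1 and Bmpr2, both with the lower effect in microglia. Over all 17087 genes 15.5% passed, 8.87% with a lower and 6.63% with a higher effect in microglia.

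Bmpr1a encodes ALK3, a BMP type I receptor of wide expression. Its levels were 1.0, 2.3, 3.0 and 2.0 TPM in control microglia (2.08 ± 0.830, SD, n = 4) and 3.3, 2.8, 4.8 and 5.0 TPM in KO microglia (3.98 ± 1.09, SD, n = 4). The ranges met between 2.8 and 3.0 TPM, where the highest control exceeded the lowest KO library. The difference of 0.71 (SE 0.26, 95% interval 0.14 to 1.29) did not pass over all genes (limma, adjusted p = 0.0666). It passed under 3 alternative settings, with adjusted p from 0.0362 to 0.0490, and was 0.93 against controls without and 0.50 against controls with Y-linked RNA. Astrocytes had 10.4, 10.3, 8.0, 6.0 and 7.8 TPM in controls and 7.2, 11.3, 8.9 and 7.0 TPM in KO animals. The ranges overlapped, although KO animal 2 was above all controls and control 4 below all KO libraries, with a difference of 0.02 (SE 0.20, limma, adjusted p = 0.980) that was negative under several alternative settings. Among these, it was -0.26 with the controls without Y-linked RNA and 0.20 with the other controls. A predicted gene on the other strand, Gm17110, overlaps exons of Bmpr1a, and the strand setting of the counting is not given in the sources used here.

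Bmpr1b encodes ALK6, a close relative of ALK3 that is known in neural and skeletal tissue. It was listed at 0 in 7 of 8 microglial libraries and at 0.1 TPM in KO microglia 1. Control astrocytes held 17.5, 13.9, 17.3, 17.6 and 19.4 TPM and KO astrocytes 12.1, 24.4, 15.7 and 12.6 TPM. The KO values lay on both sides of the controls, and the difference of -0.12 (SE 0.20) did not pass (limma, adjusted p = 0.824). Controls without Y-linked RNA gave -0.0020 and those with it -0.20.

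The makeup of the RNA of the 3 type I receptor members is given as shares. Acvrl1, a type I receptor gene outside the members, is not in these shares. Acvrl1 averaged 6.68 TPM in control and 8.98 TPM in KO microglia, above Acvr1 and Bmpr1a in both groups. Bmpr1a made up 27.4% ± 7.38 (SD, n = 4) of the summed TPM of the 3 type I receptors in control microglia, from 17.9% to 35.3%, and 68.1% ± 4.77 (SD, n = 4) in KO microglia, from 62.2% to 73.8%. Acvr1 was the larger part in each control microglia library (72.6% ± 7.38) and the smaller part in each KO library (31.4% ± 4.98). The sum itself was 7.38 ± 1.53 TPM in control and 5.80 ± 1.38 TPM in KO microglia, and these ranges overlapped. In astrocytes Bmpr1b was the largest part, at 57.3% ± 6.47 (SD, n = 5) in controls and 54.0% ± 4.12 (SD, n = 4) in KO animals. Within each library, log2 of Bmpr1a over Acvr1, each with 1 TPM added, averaged -1.07 ± 0.34 in control and 0.81 ± 0.25 in KO microglia. The shift of 1.88 had an exact two-sided permutation p of 0.0286, the smallest that 70 assignments allow, and 0.286 after adjustment over the 10 ratio tests. The same ratio moved by -0.15 in astrocytes (exact permutation p = 0.603), and none of the 10 ratio tests passed after adjustment. A ratio at its smallest possible p cannot pass this adjustment by itself. The adjusted value therefore cannot decide whether the Bmpr1a to Acvr1 ratio differs in microglia.

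**Figure D2:**
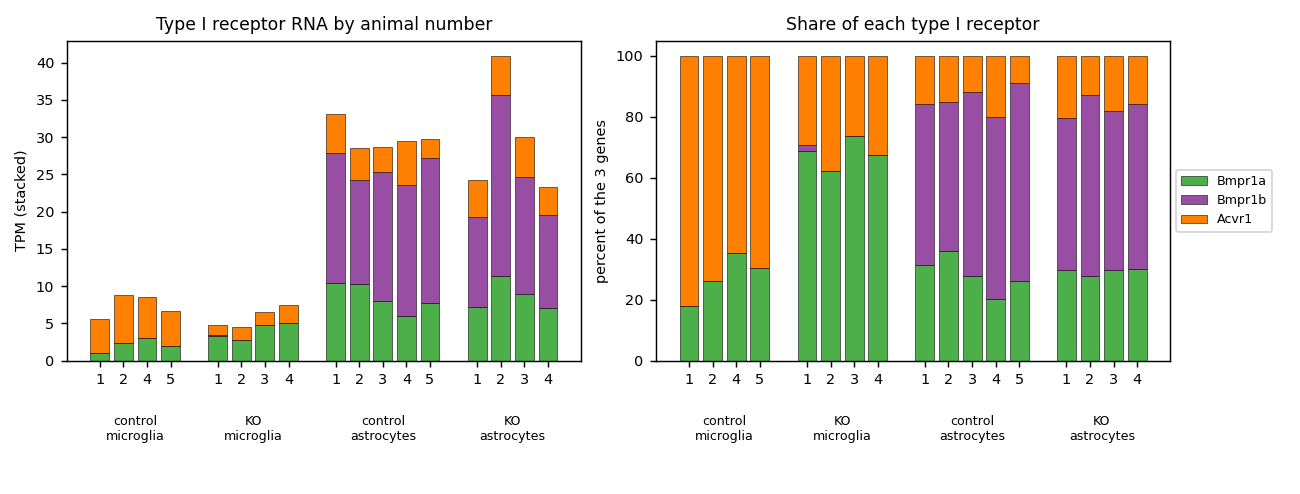
Stacked bars for each library, by group and animal number, of Bmpr1a, Bmpr1b and Acvr1 in TPM (left) and in percent of their sum (right). Bmpr1a holds 17.9% to 35.3% of the sum in control microglia and 62.2% to 73.8% in KO microglia, and Bmpr1b the largest share in astrocytes.

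Of the type II receptors, Bmpr2 differed in its KO effect between the cell types, while neither cell type alone passed the test. BMPR2 is the type II receptor that is specific to BMP ligands. Control microglia had 17.6, 8.7, 21.0 and 16.6 TPM (16.0 ± 5.20, SD, n = 4) and KO microglia 9.9, 8.0, 9.8 and 9.5 TPM (9.30 ± 0.883, SD, n = 4). In microglia 3 of the 4 control libraries were above all KO libraries, and control animal 2 was among the KO values. The difference was -0.66 (SE 0.24, 95% interval -1.21 to -0.12, limma, adjusted p = 0.0695). Without control microglia 2 it was -0.91 (adjusted p = 0.00209). With the Y-linked controls alone it was -0.94 (adjusted p = 0.00457), and with the others alone -0.39 (adjusted p = 0.355).

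In astrocytes Bmpr2 was at 7.2, 6.9, 9.2, 11.2 and 11.4 TPM in controls and at 11.6, 12.4, 12.7 and 12.4 TPM in KO animals. Every KO library stood above every control library. Of the 15231 genes tested in astrocytes, 4.40% were separated in either direction. No member was separated with KO lower, as 1.46% of genes were. The difference of 0.41 (SE 0.17, 95% interval 0.03 to 0.79) had an exact permutation p of 0.0159 taken alone and a limma adjusted p of 0.375 over all genes. It was 0.72 against the controls without and 0.20 against those with Y-linked RNA. The difference of the effects between cell types was -1.07 (SE 0.29, 95% interval -1.70 to -0.45, limma interaction contrast, adjusted p = 0.0201). Without KO astrocytes 1 and 3, which had the highest sums of mural cell markers, the contrast was -1.09 with an adjusted p of 0.0590. Acvr1 remained past the threshold there, at -1.24 (adjusted p = 0.0201).

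Acvr2a, a type II receptor shared by activins and BMPs, was at 13.5, 9.9, 19.5 and 11.8 TPM in control microglia and at 9.1, 9.3, 9.5 and 11.7 TPM in KO microglia. The ranges overlapped, with a difference of -0.39 (SE 0.20, limma, adjusted p = 0.187). Controls without Y-linked RNA gave -0.21 and those with it -0.58, neither past the threshold. Astrocytes held 5.5, 15.8, 11.6, 15.5 and 9.5 TPM in controls and 12, 16.2, 17 and 16.5 TPM in KO animals. That difference was 0.45 (SE 0.27, limma, adjusted p = 0.489), or 0.64 and 0.33 against controls without and with Y-linked RNA, and the contrast between cell types was -0.85 (adjusted p = 0.128). Exons of Orc4 lie opposite those of Acvr2a, so reads of both may have been counted together.

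SMAD1 and SMAD5 are the transducers that type I BMP receptors phosphorylate. Smad1 was at 15.6, 16.3, 22.0 and 23.5 TPM in control microglia and at 12.4, 15.3, 22.1 and 17.7 TPM in KO microglia. The groups overlapped, and the difference was -0.19 (SE 0.20, 95% interval -0.65 to 0.26, limma, adjusted p = 0.536). With controls lacking Y-linked RNA it was 0.049, and with the others -0.44. Control astrocytes had 12.1, 4.9, 5.9, 6.0 and 7.6 TPM, of which animal 1 was the highest, and KO astrocytes 8.0, 9.2, 8.8 and 7.0 TPM, a difference of 0.21 (SE 0.23, limma, adjusted p = 0.718). The 2 kinds of control gave 0.067 without and 0.30 with Y-linked RNA.

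Smad5 was at 4.8, 5.2, 4.3 and 4.7 TPM in control microglia (4.75 ± 0.370, SD, n = 4) and at 3.0, 2.9, 4.1 and 3.1 TPM in KO microglia (3.28 ± 0.556, SD, n = 4). All KO libraries were below all controls. Acvr1 and Smad5 were the 2 members whose microglial groups did not overlap, both lower in KO animals. Of all genes tested, 30.6% were separated, and 15.7% in that direction. For Smad5 the difference of -0.43 (SE 0.16, 95% interval -0.79 to -0.07) did not pass (limma, adjusted p = 0.0718). Its adjusted p was 0.0465 with quantile normalization and 0.0348 with no variance trend, and the difference was -0.50 and -0.37 against controls without and with Y-linked RNA. Gm27301, a predicted gene on the same strand, overlaps its exons. In astrocytes Smad5 was at 1.9, 3.9, 4.1, 4.7 and 4.9 TPM in controls and at 3.9, 5.6, 4.9 and 5.9 TPM in KO animals. These ranges overlapped, with a difference of 0.34 (SE 0.23, limma, adjusted p = 0.540). It was 0.68 with controls lacking Y-linked RNA and 0.12 with the others. Smad1 was the more abundant of the pair everywhere, at 79.8% ± 4.25 (SD, n = 4) of their summed TPM in control and 83.5% ± 2.04 in KO microglia, and at 63.6% ± 12.9 (SD, n = 5) in control and 62.0% ± 5.54 in KO astrocytes. Smad9, the third SMAD of the BMP branch, was listed at 0 in all 8 microglial libraries and averaged 0.900 TPM in control astrocytes.

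The Id genes, known as targets of the branch, did not pass the test in either cell type. Activity of the pathway was not measured. Id2 was the main Id gene of microglia, at 162.5, 172.3, 207.3 and 206.4 TPM in controls (187 ± 23.1, SD, n = 4) and at 153.0, 165.8, 144.3 and 159.6 TPM in KO animals (156 ± 9.21, SD, n = 4). Control animal 1 lay within the KO range, and the other 3 controls were above it. The difference was -0.26 (SE 0.11, 95% interval -0.49 to -0.02, limma, adjusted p = 0.101). It was -0.41 (adjusted p = 0.0154) with the Y-linked controls alone and -0.11 (adjusted p = 0.504) with the other pair alone.

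Id3 in microglia was at 3.2, 12.2, 10.6 and 9.6 TPM in controls and at 25.5, 8.7, 16.8 and 15.2 TPM in KO animals. KO animals 1, 3 and 4 were above all controls and KO animal 2 lay among the controls, with a difference of 0.86 (SE 0.40, 95% interval -0.04 to 1.77, limma, adjusted p = 0.148). Set against controls without Y-linked RNA alone the difference was 1.15 (adjusted p = 0.153), and 0.57 (adjusted p = 0.261) against the others. Id1 was at 2.5, 0, 8.9 and 7.4 TPM in control and at 11.4, 2.7, 8.2 and 3.0 TPM in KO microglia. Its values were scattered in both groups, and the difference of 0.63 (SE 0.71, limma, adjusted p = 0.568) did not pass. It was 1.78 (adjusted p = 0.0905) against the controls without and -0.51 (adjusted p = 0.485) against those with Y-linked RNA, and -0.048 without control microglia 2.

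In astrocytes Id2 was among the abundant transcripts, at 4615, 4639, 4807, 4420 and 4303 TPM in controls (4557 ± 198, SD, n = 5). KO astrocytes had 2563, 5804, 4273 and 2713 TPM (3838 ± 1522, SD, n = 4). KO animal 2 was above every control and the other 3 were below every control. The difference was -0.33 (SE 0.22, 95% interval -0.81 to 0.15, limma, adjusted p = 0.527), at -0.35 and -0.31 with controls without and with Y-linked RNA.

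Id3 was at 1730, 1758, 2211, 1154 and 1130 TPM in control astrocytes and at 951.8, 1312, 1463 and 768.1 TPM in KO astrocytes. Controls 4 and 5 were within the KO range, and the difference was -0.50 (SE 0.24, 95% interval -1.05 to 0.04, limma, adjusted p = 0.415). For the controls without and with Y-linked RNA it was -0.68 and -0.39. Id1 was at 138.7, 162.7, 148.2, 131.8 and 123.6 TPM in control and at 119.6, 109.8, 141.6 and 61.6 TPM in KO astrocytes. KO animals 1, 2 and 4 were below all controls, with a difference of -0.44 (SE 0.21, 95% interval -0.91 to 0.04, limma, adjusted p = 0.415), or -0.53 and -0.37 by kind of control in the same order. Of the 10 members, 0 passed in astrocytes by limma, where 0.00657% of the genes tested passed. Bmpr2 was the 1 member with an unadjusted limma p under 0.05, at 0.0371. It was also the 1 with an unadjusted exact permutation p under 0.05. The share of all genes with such unadjusted p values is not given, so these counts cannot be set against it.

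Marker levels of other cells varied over the same KO astrocyte libraries. In the order of KO animals 1 to 4, the sum of 8 astrocyte markers was 19705, 29586, 21578 and 16767 TPM, against 23510 to 25600 TPM in controls. Id2 was likewise highest in animal 2 and lowest in animals 1 and 4. Id1 and Id3 did not follow that order, and both were highest in animal 3 and lowest in animal 4 of the KO animals. The sum of 8 oligodendrocyte markers was 7373, 5849, 6349 and 14652 TPM, against 3852 to 5838 TPM in controls. The sum of 11 mural and fibroblast-like markers was 6411, 772.5, 9676 and 3660 TPM, against 208.3 to 3229 TPM, and that of 10 endothelial markers 562.2, 43.5, 351.8 and 177.9 TPM, against 38.2 to 189.8 TPM. None of these markers was at 0 in all libraries of a group, none passed the test, and their part in the values of Id1, Id2, Id3 and Bmpr2 was not tested. Without KO astrocytes 1 and 3, Bmpr2 differed by 0.42, Id2 by -0.20, Id3 by -0.62 and Id1 by -0.76, and none passed.

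**Figure D3:**
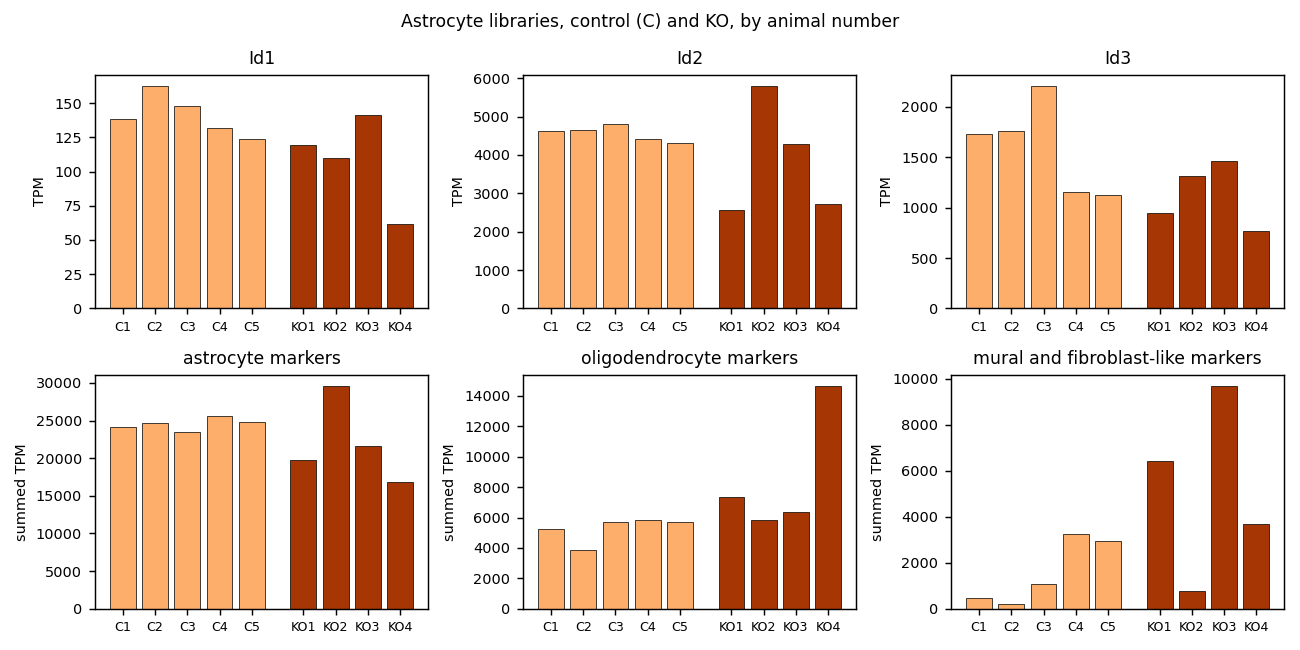
Bars of Id1, Id2 and Id3 levels in TPM in each astrocyte library of control (C) and KO animals, above the summed TPM of astrocyte, oligodendrocyte and mural markers of the same library. KO animals 1 and 4 have the lowest Id2, 2563 and 2713 TPM, and astrocyte marker sums of 19705 and 16767 TPM, below the control range. Among KO animals, Id1 and Id3 are highest in animal 3.

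In microglia, other marker sums moved with genotype as well. The sum of 8 border-associated macrophage markers was 374.9 to 713.1 TPM in controls and 5447 to 6111 TPM in KO microglia, where 5 of the 8 rose and 1 fell, and none was at 0 in all libraries. The sum of 11 immediate-early and dissociation genes was 284.8 to 625.4 TPM in controls and 854.1 to 1106 TPM in KO microglia, with 5 of 9 tested genes higher and 1 lower. Their part in the Acvr1 and Bmpr1a values was not tested. Astrocyte markers summed to 298.0 to 631.0 TPM in control and to 79.3 to 95.5 TPM in KO microglia, where Slc1a3, a glutamate transporter, alone went from a mean of 421 to 36.6 TPM. Of 6 astrocyte markers tested in microglia, 1 was lower, Slc1a3, and 2 were higher, Aldoc (12.3 to 30.1 TPM) and Aldh1l1 (0.150 to 2.20 TPM, tested through its KO level), with a median log2 difference of 0.71.

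Between the cell types, the Id genes and Bmpr1b set astrocytes apart. In controls, 7 of the 10 members differed between microglia and astrocytes (limma, adjusted), against 65.7% of the 15332 genes tested, of which 26.2% were higher and 39.5% lower in microglia. Those lower in microglia were Id3 (-7.41, SE 0.34, adjusted p = 1.43e-08), Id1 (-5.10, SE 0.57), Id2 (-4.61, SE 0.08), Bmpr1b (-4.17, SE 0.14) and Bmpr1a (-1.65, SE 0.23). Bmpr1b entered this test through its astrocyte level alone, so its call was given by the filter. Higher in microglia were Smad1 (1.33, SE 0.24, adjusted p = 6.45e-04) and Bmpr2 (0.70, SE 0.25, adjusted p = 0.0322). The Bmpr2 call was lost when control microglia 1, 4 or 5 or control astrocytes 1, 2 or 3 was left out, with adjusted p up to 0.0996. Acvr1 (0.28), Acvr2a (0.26) and Smad5 (0.27) did not pass, with 95% intervals from -0.40 to 0.93 at the widest. The median of all genes was -0.19 in this comparison and 0.08 after quantile normalization, which moved the higher and lower calls from 4016 and 6062 to 5392 and 5057. Acvr1 and Smad5 passed under that normalization, at 0.66 and 0.67.

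As shares of the control astrocyte mean, control microglia held 3.33% of Id1, 4.11% of Id2 and 0.557% of Id3. The same shares in KO animals were 5.85%, 4.06% and 1.47%. For the 8 astrocyte markers the median share was 0.219% in controls, from 0.0598% to 5.54%, and 0.427% in KO animals, from 0.0961% to 4.64%. The part of astrocyte RNA in the microglial Id values was not tested.

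In KO animals all 10 members, with the same limit for Bmpr1b, differed between the cell types, where 69.4% of 15365 genes did, 26.4% higher and 42.9% lower in microglia. Smad1 was higher in microglia (0.93, SE 0.18) and the other 9 were lower, among them Acvr1 (-1.05, SE 0.17), Acvr2a (-0.59, SE 0.15), Smad5 (-0.50, SE 0.17) and Bmpr2 (-0.37, SE 0.12). The median of all genes was -0.24 here, and after quantile normalization, with a median of 0.10, Bmpr2 (0.00031), Acvr2a (-0.24) and Smad5 (-0.03) did not pass. That normalization changed the higher and lower calls from 4058 and 6599 to 5847 and 5204. With median-of-ratios scaling Bmpr2 and Smad5 did not pass either (limma, adjusted p = 0.149 and 0.0567). Bmpr2 and Acvr2a did not pass in 1 fit over all groups (limma, adjusted p = 0.141 and 0.0571). When single libraries were left out, the limma adjusted p reached 0.0722 for Bmpr2 and 0.0612 for Smad5.

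Within a cell type, the order of mean TPM in control microglia was Id2, Smad1, Bmpr2, Acvr2a, Id3, Acvr1, Smad5, Id1, Bmpr1a and Bmpr1b. Id2, at 187 TPM, stood clear of all others, and Smad1, Bmpr2 and Acvr2a, at 19.4, 16.0 and 13.7 TPM, overlapped in their ranges. Acvr1, Smad5 and Id1 also overlapped, at 5.30, 4.75 and 4.70 TPM. In control astrocytes the order was Id2, Id3, Id1, Bmpr1b, Acvr2a, Bmpr2, Bmpr1a, Smad1, Acvr1 and Smad5. The 3 Id genes did not overlap with each other or with the receptors, while from Bmpr1b, at 17.1 TPM, down to Smad5, at 3.90 TPM, each gene overlapped with the next. In KO microglia Id2 was again highest, and Bmpr1a (3.98 TPM) stood above Acvr1 (1.80 TPM) without overlap, the reverse of their order in control microglia. Id2 held 93.5% ± 2.26 (SD, n = 4) of the summed Id1, Id2 and Id3 TPM in control microglia and 72.8% ± 4.55 (SD, n = 5) in control astrocytes.

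Other genes of the pathway were followed in 7 lists chosen by function. Of 13 BMP and GDF ligands, 1 was tested in microglia: Bmp2, a ligand of BMPR1A and BMPR2. It reached 1 TPM in 1 of 4 control and 4 of 4 KO libraries and so entered the test through its KO level, and the other 12 were not tested. Bmp2 was at 0 to 1.70 TPM in control microglia (0.525 ± 0.789, SD, n = 4) and at 13.5 to 30.7 TPM in KO microglia (18.7 ± 8.06, SD, n = 4), with no overlap and a log2 difference of 3.73 (limma, adjusted p = 4.56e-05). Of 5 other receptors and co-receptors tested, 3 fell and 0 rose, with a median of -0.74 against 0.00 over all genes. Eng, the co-receptor endoglin, fell by 2.11 (from 53.8 to 11.6 TPM). Acvr2b, an activin type II receptor, fell by 0.97, and Rgmb, a BMP co-receptor, fell by 0.74.

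Among 11 tested SMADs and intracellular inhibitors 4 fell and 2 rose in microglia, with a median of -0.38. Smad7, an inhibitory SMAD, fell by 2.07 (from 12.1 to 2.28 TPM), and the SMAD corepressors Skil and Ski fell by 1.71 and 1.45. Fkbp1a, whose product FKBP12 binds type I receptors, rose by 0.57. The other called genes of this list were the ubiquitin ligase Smurf1 (-0.70) and Tob1 (1.09), both outside the naming rule and named to complete the count. Of 2 tested secreted antagonists, Twsg1 (0.52) and Sostdc1 (-0.29), 0 passed.

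Of 4 other BMP targets tested, Junb fell by 0.89 and Klf10 rose by 0.92, and both are immediate-early genes, Junb being also in the dissociation list above. Of 4 tested E proteins and partners of Id, 1 was called: Olig1, a factor of the oligodendrocyte lineage, at means of 0.275 and 2.38 TPM in control and KO microglia, a log2 difference of 1.40. Olig1 reached 1 TPM in 0 control and 4 KO libraries, so it too entered the test through its KO level. In the TGF-beta arm Tgfbr1, its type I receptor, fell by 2.53 (from 448 to 77.3 TPM) and Tgfb1 by 0.57, out of 5 tested genes.

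In astrocytes no tested gene of these 7 lists passed, and the genes with the smallest p are given as values. Atoh8, a helix-loop-helix factor induced by BMPs, was at 4.02 ± 0.626 TPM (SD, n = 5) in controls and 1.80 ± 1.22 TPM (SD, n = 4) in KO animals (-0.93, limma, adjusted p = 0.291). Bmp5 (1.89, adjusted p = 0.345) and Bmp6 (0.63) were the ligands with the smallest p. Other such genes were Tgfbr3 (1.93) and Eng (1.37), Twsg1 (0.72) and Nbl1 (0.79), Skil (0.72) and Fkbp1a (0.41), Snai2 (0.86), Tcf12 (0.55) and Olig2 (0.16). The median over all genes was 0.07.

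For each member whose group means spanned at least 1 on the log2 scale, the genes of most similar profile over the 17 libraries were found as the smallest root mean square difference after centring, among 14198 candidates. Acvr1 was nearest to Cd81 (0.22), a tetraspanin gene, R74862 (0.23) and Nit1 (0.27). Cd81 averaged 10770 TPM in control and 4721 TPM in KO microglia, and 9323 and 8600 TPM in control and KO astrocytes. Bmpr1a was nearest to Arhgef12 (0.21), Gorab (0.21) and Ppp2r5a (0.22), and Bmpr1b to Adcyap1r1 (0.14), Nfib (0.15) and Pfn4 (0.15). Smad1 was nearest to Tigd2 (0.20), Foxp3 (0.22) and Lman2l (0.22). For Id2 the nearest were Mfap3l (0.21), Fam198a (0.22) and Cyp4f14 (0.22), which were at or below 0.10 TPM on average in microglia, where Id2 was not. Id1 and Id3 had no close match, the nearest being Wfdc1 (0.49), Ppic (0.51) and Aqp11 (0.58) for Id1 and Enho (0.47), Prn (0.51) and Fam107a (0.52) for Id3.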

How the data were processed

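RNA of sorted mouse microglia and astrocytes was sequenced in pairs of 61 bp, per the labels. The authors deposited TPM values, 1 table for each library, rounded to 1 decimal, and anything under 0.05 TPM appears as 0. TPM totals are equal in all libraries and keep no depth, so neither counting intervals nor floors are given. Trim Galore 0.4.2, cutadapt 1.9.1, STAR 2.6.1e, featureCounts 1.6.2 and mm10 stand in the submitters' processing notes with no roles, and the annotation, strand setting and treatment of multiply mapped reads are not given in the sources used here.

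Of 18 libraries, 17 were grouped by cell type and genotype. The other, labelled as an astrocyte control but with a code of the microglial kind and a title used a second time, entered no comparison. A gene was tested in a fit where it reached 1 TPM in 4 or more libraries. The test was the moderated, two-sided one of limma 3.58.1 (R 4.3.3) on log2(TPM + 1) with its variance modelled by level, and calls were made at a Benjamini-Hochberg adjusted p below 0.05. The fits were KO against control in each cell type, the difference of these effects over all 17 libraries, and microglia against astrocytes in each genotype. Exact permutation tests of single members and of 5 ratios between members used scipy 1.17.1. The fits were tested on simulated data.

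The members and lists were chosen with earlier results of these data known. Beyond the 10 members and Tgfb1, the text names up to 4 called genes of each pathway list, lowest p first, or as values the 2 of lowest p where no gene was called, and for each member whose group means span at least 1 on the log2 scale the 3 genes of nearest profile. Hjv, a listed co-receptor gene, was not matched in the files. Microglia and astrocytes with the same number come from the same mouse, per their titles, and the correlation of their deviations from the group means was 0.0895 to 0.219 in controls and 0.0178 to 0.132 in KO animals. Alternatives changed the pseudocount (0.1 or 5 TPM), the filter (none, or 5 TPM), the scaling (median of ratios, or quantiles), the variance trend, the replicate block, the groups in the fit, the kind of control, and each library in turn. Fits without KO astrocytes 1 and 3 were added later, with the data known. Positions are from GENCODE M21 (GRCm38) and promoter sequences from RefSeq (GRCm38.p6). Figures were drawn in matplotlib 3.10.9, and tables built in pandas 2.3.3 and numpy 2.4.6, under Python 3.11.15.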

Additional observations from a re-analysis of the deposited data

Results flagged for a closer look

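The KO effect differed between microglia and astrocytes for 2 members by the interaction contrast of limma: Acvr1 (-1.33, adjusted p = 0.00273) and Bmpr2 (-1.07, adjusted p = 0.0201). Over all genes tested, 15.5% passed this contrast. Acvr1 was lower in 4 of 4 KO microglia than in any control, a separation in that direction that 15.7% of genes tested in microglia had. Bmpr2 was higher in 4 of 4 KO astrocytes than in any control. In astrocytes 4.40% of genes tested were separated in either direction.

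A single library stood apart in 4 of 39 member groups by Dixon's criterion, which chance meets in about 1 in 20 groups. Bmpr1b was at 0.1 TPM in KO microglia 1 and listed at 0 in the other 3. With those 3 tied at 0, any listed value above 0 meets the criterion, so the rate of 1 in 20 does not apply to Bmpr1b. Acvr2a was at 11.7 TPM in KO microglia 4, above the 9.1 to 9.5 TPM of the others. In KO astrocytes 1, Acvr2a was at 12 TPM, below the 16.2 to 17 TPM of the others. Smad5 was at 1.9 TPM in control astrocytes 1, below the 3.9 to 4.9 TPM of the other controls.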

How the results depend on the processing

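Acvr1 in microglia passed in all 18 alternatives that tested it, with differences from -1.52 to -0.60 and adjusted p from 2.92e-04 to 0.0291, and was below the filter at 5 TPM, where the count of members called became 0. That count, 1 as reported, was 2 with median-of-ratios scaling, with quantile normalization and with no variance trend, 3 in 1 fit over all groups and 3 with the Y-linked controls alone (Acvr1, Bmpr2 and Id2), and 1 to 2 when single libraries were left out. In astrocytes it was 0 in all 21 alternatives. For the difference between cell types it was 1 without KO astrocytes 1 and 3, an alternative chosen after seeing the data, and 2 to 3 otherwise. Between cell types it was 6 to 9 in controls and 7 to 10 in KO animals. No ratio test passed at other pseudocounts or with an astrocyte library left out. There too, a single ratio at its smallest possible p cannot pass the adjustment by itself. Members with an unadjusted exact permutation p under 0.05 numbered 1 to 2 in astrocytes when single libraries were left out. The share of all genes is not given for that count either. In microglia the exact test cannot go below 0.0571 with a library left out, so single members were not run and the ratio tests could not pass.

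Over all genes, calls in astrocytes went from 1 to 3 with no filter, 88 in 1 fit over all groups, 0 and 3 with the controls without and with Y-linked RNA, 0 without KO astrocytes 1 and 3, and 0 to 5 when single libraries were left out.

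These differences changed sign, none of them past the threshold in its main test except Bmpr2 between KO cell types, and the cause was not tested. In microglia Smad1 was 0.049 against controls without and Id1 -0.51 against controls with Y-linked RNA. In astrocytes Bmpr1a was -0.031 with median-of-ratios scaling, -0.082 with quantile normalization and -0.26 against controls without Y-linked RNA. Without KO astrocytes 1 and 3, Bmpr1b was 0.043 in astrocytes, and the contrasts of Bmpr1b and Id2 were -0.0081 and -0.059. Bmpr2 between KO cell types was 0.00031 with quantile normalization, and the Id3 to Id1 ratio in microglia was -0.44 at a pseudocount of 0.1 TPM. Leaving out single libraries gave ranges of -0.048 to 1.05 for Id1 in microglia, -0.11 to 0.096 for Bmpr1a in astrocytes and -0.095 to 0.30 for the Id2 contrast. For ratios they were -0.076 to 1.09 for Id3 to Id1 in microglia, and in astrocytes -0.25 to 0.23 for Smad1 to Smad5, -0.25 to 0.10 for Bmpr2 to Acvr2a, -0.092 to 0.34 for Id2 to Id1 and -0.15 to 0.065 for Id3 to Id1.

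With the replicate number as a block, members called were 1 in microglia, 0 in astrocytes, 2 for the difference between cell types, and 7 and 10 between cell types, so no count of members moved. The block changed the call of Tgfb1 in microglia (-0.60, adjusted p = 0.177) and the sign of Bmpr1a in astrocytes (-0.0057). Over all genes the block gave 2079 calls in microglia against 3711, and 0 in astrocytes against 1. Control and KO animals share only a number: correlations of same-numbered libraries were 0.0026 to 0.0232 in microglia, where 0 of 3 correlated best with their own number, and -0.0918 to 0.185 in astrocytes, where 1 of 4 did. The read depth reached in each library is unknown, so low values, such as those of Id1 and Bmpr1a in microglia, have no counting error attached.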
